A study of Homo sapiens with 4 samples.

Results

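NFAT5, the transcription factor of the response to hypertonic stress, was examined here together with 6 genes of osmolyte handling and osmotic signalling in 2 human bladder cancer cell lines. The 7 genes are NFAT5, AKR1B1, SLC5A3, SLC6A6, SLC6A12, SLC38A2 and SGK1, taken by symbol from a table of 32973 genes. The group was chosen by the measured RPKM of NFAT5, which was lower with BCUC-1 in both lines, so its own BCUC-1 values are a description and carry no test. The question put to the other 6 was whether they followed it.

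Transcript levels came from RNA sequencing of total RNA in 4 groups with 1 library each. T24T cells carried either the empty vector or the overexpression plasmid of BCUC-1, a circular RNA (hsa_circ_0001361), and UMUC3 cells carried the same pair of constructs, all by stable transfection. All cultures grew in serum-containing RPMI-1640 medium, and the labels name no osmotic treatment. Whether a transfected culture was 1 clone or a pool is not given in the sources used here. Within a line, a difference therefore compares 2 libraries and has no replicate check.

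Cells in hypertonic surroundings lose water and then replace inorganic ions with small organic osmolytes. NFAT5, also called TonEBP, is a Rel-family factor that binds tonicity-responsive enhancers and raises genes that make or import those osmolytes. AKR1B1 encodes aldose reductase, which makes sorbitol. SLC5A3 imports myo-inositol, SLC6A6 imports taurine, SLC6A12 imports betaine, and SLC38A2 imports neutral amino acids. SGK1 is a kinase that acts on ion channels and transporters and is induced by osmotic change and by glucocorticoids.

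The core of the NFAT5 binding motif is shown where it occurred near a start of one of these genes. In the RefSeq promoter table (GRCh38.p14), 4 of the 7 genes had an entry, with 7 windows of 250 bases before to 50 bases after a start (AKR1B1, SLC5A3, SLC38A2 and SGK1). The letters TGGAAA were searched on both strands. One of these 7 windows held them, against 20.7% of all 35116 windows. The match lay at chr12:46372726-46372751 on the minus strand, 33 bases into the transcribed side of SLC38A2, with capitals marking the motif as it reads on the gene's strand, the reverse complement of TGGAAA.

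SLC38A2: ttagaacgccTTTCCAgtactgctag

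A match is only a description of these letters, and known enhancers of these genes can lie outside so short a window.

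Reads assigned to genes numbered 23679229 for the vector and 23588847 for the BCUC-1 library of T24T. The corresponding totals for UMUC3 were 26497894 and 22730112. FNDC3B, the host gene of BCUC-1, had BCUC-1 to vector ratios of 0.949 (95% interval 0.888 to 1.02) in T24T and 0.987 (0.928 to 1.05) in UMUC3, but reads summed over the gene cannot separate the circle from linear transcripts. Of 15 urothelial and epithelial markers, 4 or 5 reached 1 RPKM (reads per kilobase of exon, scaled to the assigned reads of the library) in each library, led by KRT8 in T24T and KRT18 in UMUC3. Their summed level was 246 to 263 RPKM in T24T and 58.6 to 60.8 in UMUC3. CDH1 (E-cadherin), UPK1B, KRT5 and KRT20 were listed at 0 in both UMUC3 libraries and UPK3A in both T24T libraries. The share of mitochondrially encoded reads was 3.84% to 3.92% in T24T, and in UMUC3 6.33% with vector and 5.30% with BCUC-1. The endothelial and fibroblast markers and the 2 blood markers analysed here were all below 1 RPKM.

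The NFAT5 gene occupies bases 69565094 to 69704666 of chromosome 16 (GRCh38, plus strand) and has 16401 exonic bases. In T24T its level was 20.8 RPKM with vector and 15.8 with BCUC-1. In UMUC3 it was 10.2 RPKM with vector and 8.52 with BCUC-1. The BCUC-1 library was thus the lower of the pair in both lines, and both T24T libraries lay above both UMUC3 libraries. These levels rested on 8082, 6122, 4439 and 3177 reads in the same order.

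On library-scaled reads (RPM, reads divided by the assigned reads of the library), the NFAT5 ratio of BCUC-1 to vector was 0.760 in T24T (exact 95% interval 0.735 to 0.786) and 0.834 in UMUC3 (0.797 to 0.873). All intervals given here hold counting error alone, and sequenced reads lacking molecular identifiers may be copies of 1 molecule. On the log2 scale the differences were -0.40 and -0.26. Of the 6656 genes whose summed reads reached 1000 in both lines, no other gene had differences as low as these in both lines. Log2 differences spread more widely over these genes in UMUC3 (SD 0.16) than in T24T (SD 0.081), and 291 of them, NFAT5 included, were at or below the NFAT5 value in UMUC3 against 5 in T24T. The UMUC3 differences moved with base composition, and the part of this in the NFAT5 difference was measured by removing the trend. In the GC class of NFAT5, whose longest transcript has 40.4% GC, the median log2 difference was -0.084 in UMUC3 and -0.017 in T24T. With that trend removed the NFAT5 differences were -0.18 in UMUC3 and -0.38 in T24T. The place of NFAT5 among the 6656 genes was taken before this removal, and it follows from how the gene was chosen.

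By value, the lower NFAT5 signal was not even along the transcript. The listed gene RP11-311C24.1 covers 1588 bases at the far 3′ end of the last NFAT5 exon (69703065 to 69704652, same strand), all of them shared with NFAT5, so its reads give the local level of that stretch. In T24T the vector library gave 773 reads there and the BCUC-1 library 522, and in UMUC3 these numbers were 441 and 263. In this stretch the ratio of BCUC-1 to vector was 0.678 (0.605 to 0.758) in T24T and 0.695 (0.594 to 0.812) in UMUC3. Over the remaining NFAT5 exons, with these reads subtracted, it was 0.769 (0.743 to 0.796) and 0.850 (0.810 to 0.891). The end stretch was therefore lower than the rest in both lines, by a factor of 0.881 (0.783 to 0.992) in T24T and 0.818 (0.694 to 0.963) in UMUC3. The base composition of the end stretch and of the rest was not measured, so no GC trend was removed here. Whether it has a part in these factors was not tested.

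The same comparison could be made for 77 pairs of a gene and its host (76 genes in 62 hosts) where the gene lies wholly within exons of another gene of the same strand and had enough reads (100 or more in both pairs), a comparison added after the values were seen. By value, 11 pairs in T24T and 8 in UMUC3 were at or below NFAT5, itself included, and in both lines NFAT5 was joined by SNORD58A within RPL17 (0.843, 0.612 to 1.16, and 0.730, 0.534 to 0.992). The interval lay below 1 for 5 pairs in T24T and for 7 in UMUC3, and for NFAT5 alone in both lines, a count that depends on read number. The T24T upper bound for NFAT5 is close to 1, and the values are descriptions from the contrast that chose the gene. The subtraction takes reads of the contained gene to be counted for NFAT5 too.

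**Figure D1:**
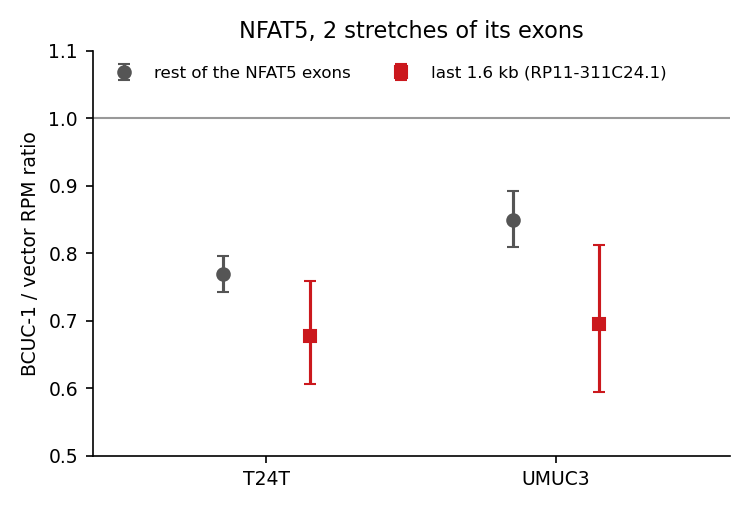
Ratio of RPM in the BCUC-1 library to that in the vector library of each line, for the exonic stretch at the 3′ end of NFAT5 that RP11-311C24.1 covers (squares) and for the remaining NFAT5 exons (circles). Bars are exact 95% counting intervals, with 1 library per group. The stretch at the end is the lower one in both lines, at 0.678 against 0.769 in T24T and 0.695 against 0.850 in UMUC3.

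Of the 6 nearest genes with 100 or more reads in both pairs, 3 on each side of NFAT5, none was below 1 beyond counting error in both lines. Over the 12771 genes counted in both pairs, 1.95% were lower by this rule, so none of 6 is near that share. The closest was NQO1, a quinone reductase gene 2330 bases beyond the NFAT5 end on the minus strand, with ratios of 0.953 (0.898 to 1.01) in T24T and 1.02 (0.967 to 1.07) in UMUC3. TERF2, which encodes a telomere-binding protein, had 0.948 (0.863 to 1.04) and 1.08 (0.993 to 1.16). CYB5B, a mitochondrial outer membrane cytochrome gene, had 0.923 (0.895 to 0.952) and 0.983 (0.932 to 1.04). The noncoding RP11-140H17.1, which lies wholly within CYB5B exons and so is not a separate neighbour, had 0.963 (0.867 to 1.07) and 0.999 (0.771 to 1.29). Of 2 further noncoding neighbours, CTD-2033A16.1 had 1.07 (0.875 to 1.32) and 0.746 (0.620 to 0.895), and CTD-2033A16.3 had 0.977 (0.794 to 1.2) and 1.16 (1.00 to 1.35). Beyond counting error, CYB5B was lower in T24T, and in UMUC3 CTD-2033A16.1 was lower and CTD-2033A16.3 higher. Over all genes, 10.7% were lower and 5.67% higher in T24T, and 15.4% and 21.8% in UMUC3.

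Of the other 6 genes, AKR1B1 lies at bases 134442350 to 134459284 of chromosome 7 (minus strand) and SLC5A3 at 34073570 to 34106262 of chromosome 21 (plus). SLC6A6 lies at 14402576 to 14489349 of chromosome 3 (plus), and SGK1 at 134169246 to 134318112 of chromosome 6 (minus). Chromosome 12 holds SLC6A12 at 190077 to 214570 and SLC38A2 at 46358189 to 46372867, both on the minus strand.

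These 6 genes differed widely in abundance. By RPKM, which is corrected for exonic length, SLC38A2 was the highest in every library, with 130.9 (vector) and 127.7 (BCUC-1) in T24T and 106.5 and 97.5 in UMUC3. SLC6A12 was the lowest, with 1 read (vector) and 0 reads (BCUC-1) in T24T, against 0 and 2 in UMUC3. Where SLC6A12 had 0 reads, counting error allows up to 3 reads, or 0.0241 RPKM in T24T BCUC-1 and 0.0214 RPKM in UMUC3 vector. The betaine transporter transcript was thus at the limit of detection, no ratio can be read from it, and it is left out of the counts below.

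Between these extremes the order depended on the line. In T24T vector NFAT5 stood second, followed by AKR1B1 (10.4 RPKM), SLC6A6 (10.2), SLC5A3 (8.60) and SGK1 (2.13). AKR1B1 and SLC6A6 did not differ beyond their counting intervals in either T24T library. In UMUC3 vector AKR1B1 stood second at 18.7 RPKM, ahead of SLC6A6 (11.2), NFAT5, SGK1 (2.10) and SLC5A3 (1.77). SGK1 and SLC5A3 overlapped in their intervals in UMUC3 BCUC-1, where they had 1.73 and 1.90 RPKM.

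**Figure D2:**
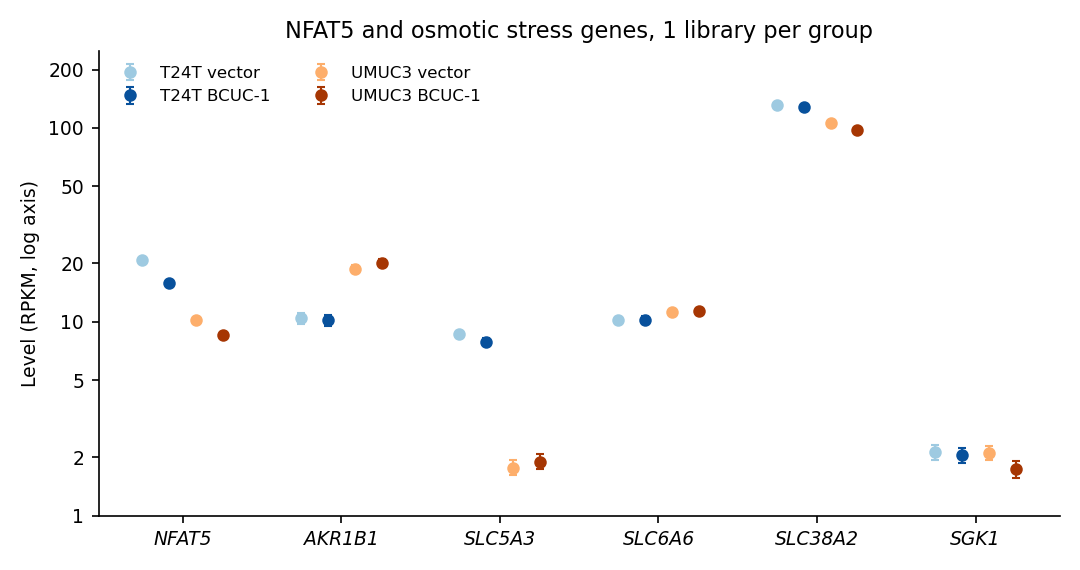
Level of 6 of the 7 genes in RPKM on a log axis, with 1 point per library and exact Poisson 95% intervals for counting error. SLC6A12, with at most 2 reads in a library, is not drawn. NFAT5 lies at 20.8 and 15.8 RPKM in T24T, SLC38A2 is the highest gene throughout, and SLC5A3 lies at 8.60 and 7.91 RPKM in T24T and at 1.77 and 1.90 in UMUC3.

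In T24T, none of the 5 measurable genes came near the NFAT5 difference. AKR1B1 gave 903 reads with the vector and 877 with the plasmid, and its ratio was 0.975 (0.887 to 1.07). SLC6A6 had 1985 and 1991 reads, a ratio of 1.01 (0.946 to 1.07). For sorbitol synthesis and taurine uptake, equal levels lay within counting error. SLC5A3 had 2357 and 2160 reads, a ratio of 0.920 (0.867 to 0.976), and was the lowest of these 5 genes. SLC38A2 had 20463 and 19888 reads, a ratio of 0.976 (0.957 to 0.995). The inositol and amino acid transporters were thus slightly lower, by more than counting error but by far less than NFAT5. The SLC38A2 interval included 1 with median-ratio scaling and with the GC trend removed, and that of SLC5A3 did not. SGK1 had 503 and 482 reads, a ratio of 0.962 (0.847 to 1.09).

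By counting interval, 2 of these 5 genes were lower and 0 were higher in T24T. Of the 14120 genes counted (100 reads or more over both libraries), 10.7% were lower and 5.67% higher by the same rule. None of the 5 passed a ratio of 1.2 in either direction, which 7.19% of all genes did downward and 2.2% upward. The median log2 difference of the 5 was -0.037, beside -0.020 over all 14120 genes.

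In UMUC3 the 5 genes pointed in different directions. SGK1 gave 557 reads with the vector and 393 with the plasmid, and its ratio was 0.823 (0.721 to 0.938), which is about as low as that of NFAT5 in this line. SLC38A2 had 18639 and 14628 reads, a ratio of 0.915 (0.895 to 0.935). AKR1B1 had 1813 and 1672 reads, a ratio of 1.08 (1.01 to 1.15). The kinase and the amino acid transporter were lower and aldose reductase was slightly higher by counting error. SLC5A3 had 543 and 499 reads, a ratio of 1.07 (0.947 to 1.21), and SLC6A6 had 2458 and 2129 reads, a ratio of 1.01 (0.952 to 1.07).

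By counting interval, 2 of the 5 were lower and 1 was higher in UMUC3, while 15.4% of 13795 genes were lower and 21.8% higher. At a ratio of 1.2, only SGK1 passed, downward, where 6.89% of all genes passed downward and 10.9% upward. The median log2 difference of the 5 was 0.014, beside 0.034 over all genes. With the GC trend of UMUC3 removed, SLC38A2 moved from -0.13 to 0.010 on the log2 scale and AKR1B1 from 0.10 to 0.0070. SGK1 stood at -0.21 and remained below 0 by counting error, and SLC5A3 stood at 0.20, above 0 by counting error. The AKR1B1 interval also included 1 with median-ratio scaling and without the mitochondrially encoded reads.

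**Figure D3:**
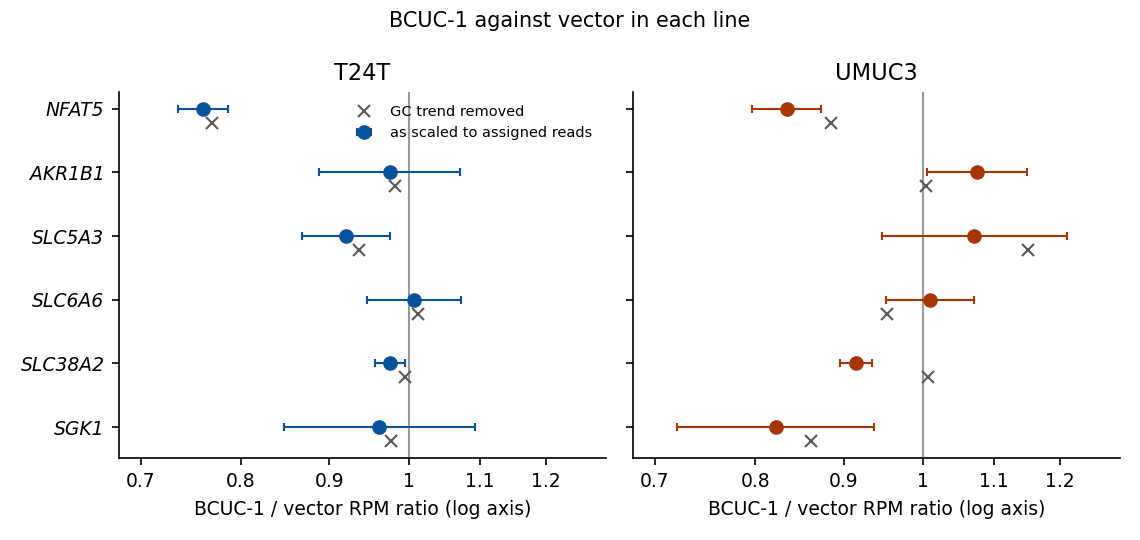
Ratio of RPM in the BCUC-1 library to that in the vector library for 6 genes in T24T (left) and UMUC3 (right), on a log axis. Circles carry exact 95% counting intervals, and crosses give the ratio with the GC trend of the line removed. NFAT5 lies at 0.760 and 0.834, SGK1 is the only other gene below 0.9 (0.823 in UMUC3), and SLC38A2 in UMUC3 moves from 0.915 to 1.01 with the trend removed.

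SLC38A2 was the only one of the 5 whose interval lay below 1 in both lines, with ratios of 0.976 and 0.915, and with the GC trend removed both intervals included 1. Over the 12771 genes counted in both pairs, 1.95% were lower in both lines by this rule and 2.02% higher. None of the 5 was past a ratio of 1.2 in the same direction in both lines, as 0.532% of genes were downward and 0.305% upward.

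A fit over both lines asked whether a gene differed alike in T24T and UMUC3. Limma on log2(RPKM + 1), with the line as a block and 1 residual degree of freedom, called 0 of 15415 genes (0% of those tested) at a Benjamini-Hochberg adjusted p of 0.05. Without adjustment 652 genes had a limma p under 0.05, and limma-voom on the recovered reads called 13. The estimates were 0.033 (SE 0.078) for AKR1B1, -0.022 (SE 0.10) for SLC5A3, 0.011 (SE 0.078) for SLC6A6, -0.081 (SE 0.064) for SLC38A2 and -0.11 (SE 0.10) for SGK1. Each of the 5 had a limma adjusted p of 0.998, and limma-voom gave the same rounded value for all 5. This scale understates differences of low genes such as SGK1 and SLC5A3. The limma 95% intervals reached down to -0.15 for AKR1B1, -0.18 for SLC6A6, -0.23 for SLC38A2, -0.26 for SLC5A3 and -0.36 for SGK1. The NFAT5 estimate on this scale was -0.31, a description only, since this contrast chose the gene. Whether any of the 5 differed from NFAT5 in this fit was not tested. Whether a gene differed between the lines in its response could not be tested, since an interaction leaves no residual degree of freedom.

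**Figure D4:**
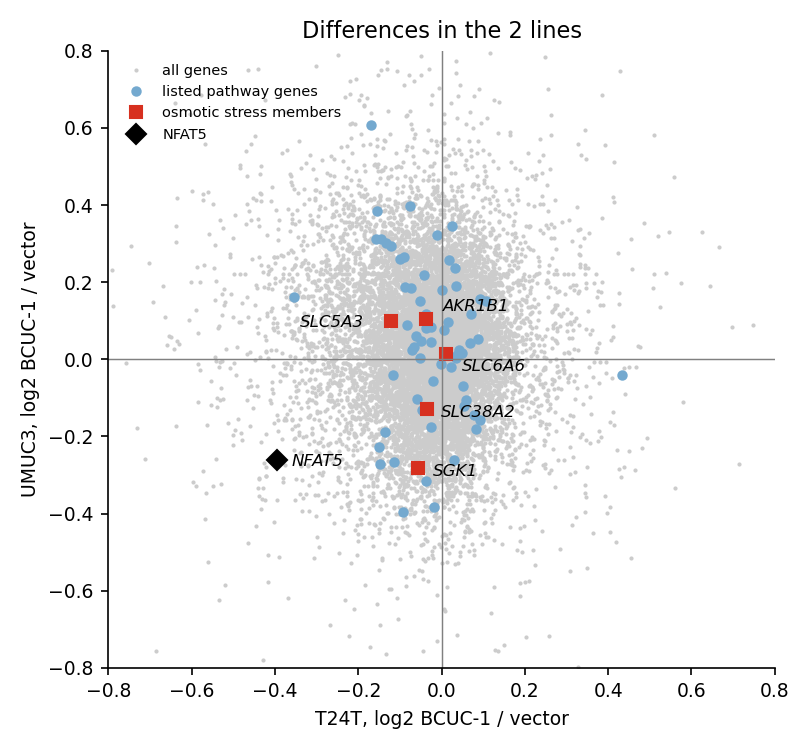
Log2 difference between the BCUC-1 and vector libraries in T24T (horizontal) and UMUC3 (vertical). Grey points are the genes counted in both pairs (36 of 12771 lie outside the axes), blue points 64 genes of the pathway lists, red squares 5 osmotic stress genes and the black diamond NFAT5. NFAT5 lies at -0.40 and -0.26, and the red squares lie between -0.12 and 0.0099 in T24T.

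Some of these values can include reads of other genes, because the counting was not documented. SLC5A3 shares its first exon and further bases, 273 in all, with MRPS6, a mitochondrial ribosomal protein gene of the same strand, and 154 bases with AP000320.7. The MRPS6 ratios were 1.03 (0.923 to 1.16) in T24T and 0.973 (0.842 to 1.12) in UMUC3. Those of AP000320.7 were 1.11 (0.908 to 1.35) and 1.13 (0.90 to 1.42). Over its whole length MRPS6 collected 604 (vector) and 622 (BCUC-1) reads in T24T, against 418 and 349 in UMUC3. SLC6A6 shares 239 bases with GRIP2 on the opposite strand, which had at most 25 reads in a library. AKR1B1, SLC6A12, SLC38A2 and SGK1 shared no exonic base with another gene listed at 1 locus.

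The contrast of the lines was not used to choose these genes and was tested in the same limma fit. NFAT5 was higher in T24T, by 2.04-fold (RPM ratio, 1.96 to 2.11) between the vector libraries and 1.86-fold (1.78 to 1.94) between the BCUC-1 libraries. Its limma log2 difference, UMUC3 minus T24T, was -0.89 (SE 0.080, adjusted p 9.76e-05). SLC5A3 went the same way with a larger difference of 4.86-fold (4.42 to 5.34) and 4.17-fold (3.78 to 4.61), and a limma log2 difference of -1.71 (SE 0.10, adjusted p 1.64e-05). SLC38A2 was higher in T24T too, by 1.23-fold and 1.31-fold, with a log2 difference of -0.34 (SE 0.064, limma adjusted p 0.0029).

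AKR1B1 went the other way. It was higher in UMUC3 by 1.79-fold (1.66 to 1.95) between the vector libraries and 1.98-fold (1.82 to 2.15) between the BCUC-1 libraries, with a limma log2 difference of 0.85 (SE 0.078, adjusted p 0.000109). SLC6A6, 1.11-fold higher in UMUC3 between either pair of libraries (0.14, SE 0.078, limma adjusted p 0.160), and SGK1 (-0.084, SE 0.10, limma adjusted p 0.488) did not pass. The limma 95% intervals were -0.051 to 0.32 for SLC6A6 and -0.33 to 0.16 for SGK1. With quantile normalization SLC6A6 passed at 0.22 and SGK1 stood at 0.048.

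Of the 6 genes tested, NFAT5 included, 3 were therefore higher in T24T, 1 was higher in UMUC3 and 2 did not pass. The lines differed at 70.4% of the 15415 genes, with 40.8% higher in T24T and 29.6% higher in UMUC3, so a call between the lines is common. The limma variance combines 1 residual degree of freedom with a trend over all tested genes, from 1 library per group, so the test compares these cultures. The libraries that were higher in NFAT5 were thus higher in the inositol transporter and lower in aldose reductase.

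**Figure D5:**
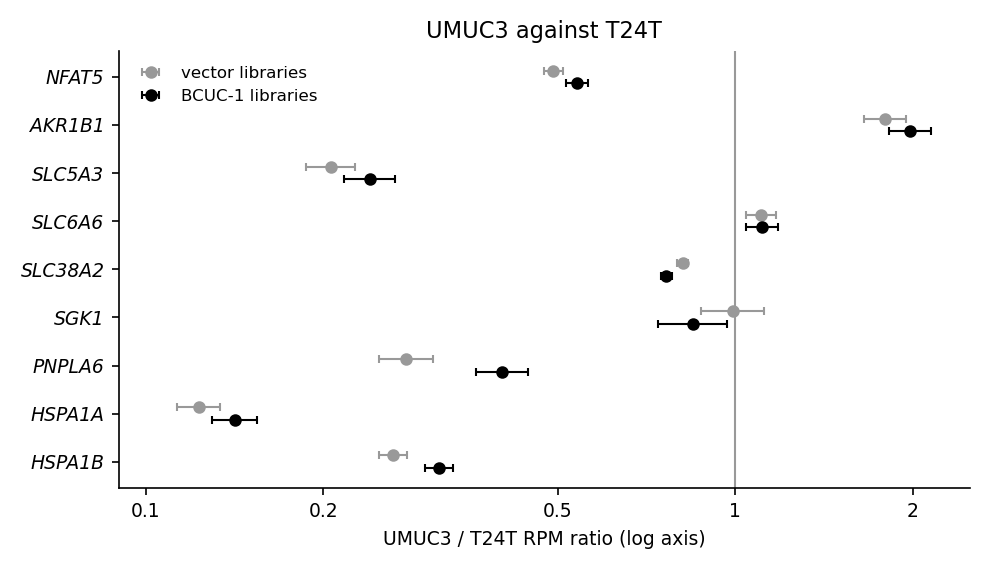
Ratio of RPM in UMUC3 to that in T24T on a log axis, for the vector libraries (grey) and the BCUC-1 libraries (black), with exact 95% counting intervals. NFAT5 and SLC5A3 lie below 1, at 0.491 and 0.206 in the vector libraries, and AKR1B1 lies above 1, at 1.79. The further NFAT5 target genes drawn, PNPLA6, HSPA1A and HSPA1B, lie below 1. They are the 3 most abundant of their list by mean RPKM. VEGFC and CCL2 of that list, not drawn, were higher in UMUC3.

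A wider list of 16 NFAT5 target genes was described next, among them chaperone, urea transporter, aquaporin and cytokine genes. In T24T, 5 of the 14 analysed here were counted, of which 1 was lower and 0 were higher by counting interval, beside 10.7% and 5.67% of all genes. In UMUC3 0 of 6 were lower and 3 were higher, beside 15.4% and 21.8%, and their median log2 difference was 0.18, or 0.073 with the GC trend removed, beside 0.034 over all genes. HSPA1A, an inducible heat shock chaperone gene, had 77.2 (vector) and 74.5 (BCUC-1) RPKM in T24T, and 9.48 and 10.5 in UMUC3. Its close copy HSPA1B had 98.0 and 95.2 RPKM in T24T, and 25.7 and 29.9 in UMUC3. Reads of these 2 near-identical genes can be split between them, so the values of each are uncertain. Both were higher in T24T, by limma log2 differences (UMUC3 minus T24T) of -2.80 for HSPA1A (SE 0.076, adjusted p 1.11e-06) and -1.76 for HSPA1B (SE 0.080, adjusted p 5.89e-06). With BCUC-1 their ratios were 0.965 and 0.972 in T24T and 1.11 and 1.16 in UMUC3. PNPLA6, the esterase that releases the osmolyte glycerophosphocholine, had ratios of 0.898 (0.833 to 0.967) and 1.31 (1.15 to 1.48). Named after their values were seen, VEGFC and CCL2 of this list were higher in UMUC3. In the vector libraries VEGFC had 1.54 RPKM in T24T and 4.97 in UMUC3, and CCL2 had 0.149 and 2.57. HSPA4L, like PNPLA6, was higher in T24T, at 5.17 RPKM with vector against 3.21 in UMUC3.

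Of 16 genes that control NFAT5 or carry it through nuclear pores, 15 were counted in each line. In T24T 1 was lower and 2 were higher, beside 10.7% and 5.67% of all genes. In UMUC3 1 was lower and 7 were higher, beside 15.4% and 21.8% of all genes, and the median log2 difference was 0.060, or 0.040 with the GC trend removed. Named after their values were seen, CCM2 (1.27, 1.08 to 1.5) and MAP3K3 (1.22, 1.1 to 1.37) passed a ratio of 1.2 in UMUC3. Both belong to the p38 pathway upstream of NFAT5, and in T24T they had 1.02 (0.888 to 1.17) and 0.919 (0.834 to 1.01). They were 2 of the 15 counted in UMUC3, where 10.9% of all genes passed that ratio upward. With the GC trend removed their UMUC3 log2 differences were 0.23 and 0.16, both short of a ratio of 1.2. KPNB1, the importin that brings NFAT5 into the nucleus, had ratios of 1.05 in T24T and 1.09 in UMUC3, the phosphatase gene PTPN11 had 1.02 and 0.986, and the GTPase gene RAC1 had 1.03 and 1.02. Among the other NFAT genes, which respond to calcium and calcineurin, NFATC3 had 0.964 (0.874 to 1.06) and 1.00 (0.904 to 1.11), and NFATC1 had 0.974 and 1.08. NFATC2 was sparse, at 113 reads (vector) and 74 (BCUC-1) in T24T against 30 and 15 in UMUC3, with ratios of 0.657 (0.484 to 0.889) and 0.583 (0.291 to 1.12). It was lower in both lines by value, but in UMUC3 equal levels lay within counting error. NFATC4 had at most 1 read in a library.

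Other enzymes and carriers of osmolytes were called in both directions. Of 22 such genes, 2 were lower and 1 higher of 15 counted in T24T, and 5 were lower and 3 higher of 14 counted in UMUC3. Over all genes the shares lower and higher were 10.7% and 5.67% in T24T and 15.4% and 21.8% in UMUC3. SLC38A1, a system A amino acid transporter like SLC38A2, had ratios of 1.07 and 0.897, IMPA1, which frees inositol from its phosphate, had 1.02 and 0.835, and the aldehyde reductase gene AKR1A1 had 0.933 and 1.2. With the GC trend removed, the UMUC3 log2 differences went from -0.16 to -0.090 for SLC38A1, from -0.26 to -0.070 for IMPA1 and from 0.26 to 0.13 for AKR1A1. The UMUC3 median of this list was 0.039, and it was 0.0021 with the trend removed. Of 21 genes of cell volume regulation, 3 were lower and 0 higher of 19 counted in T24T, and 3 were lower and 5 higher of 19 in UMUC3, to be read against the same shares. Their UMUC3 median was 0.046, and it was 0.048 with the trend removed. ATP1B3 had ratios of 1.03 and 1.01, and CLNS1A had 0.999 and 0.991. ATP1B1, named after its values were seen, was lower beyond counting error in both lines, with ratios of 0.903 (0.827 to 0.985) and 0.828 (0.765 to 0.896). By that rule 1.95% of the 12771 genes counted in both pairs were lower in both lines. ATP1B1 was the only such gene among the 64 list genes counted in both lines, which is near that share.

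SGK1 was set beside 10 genes of the SGK family and of glucocorticoid and mTORC2 signalling. In T24T 0 of 10 were lower or higher, beside 10.7% and 5.67% of all genes. In UMUC3 5 of 9 were lower and 1 was higher, beside the 15.4% and 21.8% of all genes given above. The UMUC3 median of this list was -0.10, and it was -0.00012 with the GC trend removed. The glucocorticoid receptor gene NR3C1 had ratios of 0.959 and 0.931, its target FKBP5 had 1.03 and 1.01, and the ubiquitin ligase gene NEDD4 had 1.04 and 0.930. Over all 6 lists, 64 genes were counted in both lines and 0 passed a ratio of 1.2 in the same direction in both. With 0.532% of all genes lower and 0.305% higher by that rule, a count of 0 is near the share over all genes.

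The genes most like NFAT5 in pattern were ODF2L, SLC39A10, ZNF37BP, ACADSB and SETD6. Likeness was the distance between log2 RPM values of the 4 libraries, each gene centred on its own mean, among the same 6656 abundant genes. ODF2L had 4.80 (vector) and 4.19 (BCUC-1) RPKM in T24T and 2.62 and 2.14 in UMUC3, at a distance of 0.149. SLC39A10, a zinc importer gene, had 19.4 and 16.0 RPKM in T24T and 10.9 and 9.05 in UMUC3, at a distance of 0.157. Like NFAT5, both were higher in T24T and lower with BCUC-1 in each line, which follows from choosing them by likeness over these same libraries. The other 3 lay at distances of 0.172, 0.177 and 0.180. By the same measure SLC38A2 ranked 1853 among 6655 genes, SLC6A6 4277, SLC5A3 4675 and AKR1B1 6306, and SGK1 had too few reads to be ranked. The distance includes the difference between the lines, so these ranks do not isolate whether a gene followed NFAT5 with BCUC-1.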

How the data were processed

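The authors deposited 1 table of RPKM per gene for 4 libraries, per the file headers, with exon coordinates and an exonic Length in bases (unit "other"). The submitters' processing notes name Bowtie 0.12.2 without its role. For the genome build, strand and counting rules the entry is: not given in the sources used here. All 7 genes have the GENCODE 29 start and end, so coordinates are given as GRCh38. RPKM times length was a whole number of reads for 100% of genes (tolerance 0.001 reads), and library-scaled reads (RPM) were computed from these reads.

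The members and gene lists were chosen with earlier results of these data known. Within a line, RPM ratios carry exact (Clopper-Pearson) 95% intervals and no test, and a gene counts as lower or higher where its interval excludes 1 and the pair holds at least 100 reads. Levels carry Poisson intervals. Limma 3.58.1 (R 4.3.3, intensity trend, two-sided) was fitted on log2(RPKM + 1), keeping a gene where 2 or more libraries reached 1 RPKM. Line and treatment were its terms. It was also run on simulated data in which the lines had equal levels apart from planted changes, unlike these libraries. That run is therefore no check of the fit on these data. The residual of a gene holds only how far its BCUC-1 difference disagreed between the lines. Limma then draws the variance of each gene toward a trend over all tested genes. P-values therefore measure no spread between replicate cultures. The GC trend was the median log2 difference in 20 classes by GC of the longest GENCODE 29 transcript, which matched 85.5% (T24T) and 85.8% (UMUC3) of the genes counted and every counted member and list gene. Named genes were the 7 members, FNDC3B, genes overlapping a member, the 3 nearest neighbours of NFAT5 on each side, the 5 genes most like it, NFATC1 to NFATC4, and of each list the 3 most abundant genes and any past a ratio of 1.2 the same way in both lines. One gene that this rule names is not reported here. Other scalings, pseudocounts, floors and limma-voom were alternatives.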

Additional observations from a re-analysis of the deposited data

Results flagged for a closer look

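PNPLA6, KCNN4 and SLC38A1 of the pathway lists differed in opposite directions in the lines, each beyond counting error. The difference between the lines was not tested, since each group has 1 library. PNPLA6 had a log2 difference (BCUC-1 over vector) of -0.16 in T24T and 0.38 in UMUC3. The channel gene KCNN4 had -0.16 and 0.31, and the transporter gene SLC38A1 had 0.092 and -0.16. With the GC trend removed these were -0.12 and 0.15 for PNPLA6, -0.12 and 0.12 for KCNN4, and 0.11 and -0.090 for SLC38A1. The UMUC3 intervals of PNPLA6 (-0.033 to 0.34) and KCNN4 (-0.013 to 0.25) then included 0, and those of SLC38A1 excluded it in both lines.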

How the results depend on the processing

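The labels give no replicate numbers, and with 1 library per group no replicate could be left out. Vector and BCUC-1 were paired by line, as a block in limma. Without that block the count with BCUC-1 was 0 as well, and the standard error of SLC38A2 went from 0.064 to 0.24. In T24T the number of the 6 genes other than NFAT5 that were lower (2) was 1 with median-ratio scaling, 1 with the GC trend removed and 0 at a ratio of 1.2. In UMUC3 the number lower (2) was 1 with the GC trend removed and 1 at a ratio of 1.2, and the number higher (1) was 0 with median-ratio scaling, 0 without the reads of mitochondrially encoded genes and 0 at a ratio of 1.2. The SLC38A2 difference in UMUC3 reversed to 0.010 with the GC trend removed. Over both lines the count of genes with BCUC-1 was 13 with limma-voom, 1 with a pseudocount of 0.1 and 60 at a floor of 5 RPKM. Between the lines it was 6780 at that floor, where fewer genes (8830) were tested, against 10847. With quantile normalization SGK1 reversed to 0.048 (limma log2 difference, UMUC3 minus T24T) and SLC6A6 passed at 0.22. For the other moved counts the cause was not tested. NFAT5 stayed below 0 under every scaling, pseudocount and GC setting run, from -0.40 to -0.37 in T24T and from -0.30 to -0.18 in UMUC3. Depth limits SLC6A12 and NFATC4.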
